A study of Homo sapiens with 14 samples.

Results

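The genes described here are 49 genes of the G2/M transition and of mitosis: mitotic kinases, cyclins, kinetochore proteins, spindle proteins and condensin subunits. They were chosen by name from a list, with earlier results of these data known. All 49 were present in both deposited tables, out of 12202 genes present in either. The study examined CALCRL, which encodes the calcitonin receptor-like receptor, and an enhancer that controls it, in teloHAEC, an immortalized human aortic endothelial cell line. Expression was measured by QuantSeq, which reads mainly the 3' end of polyadenylated mRNA, in 14 libraries forming 2 arms. In the siRNA arm, 4 libraries of cells given a CALCRL siRNA (siCALCRL) were compared with 4 given a scrambled siRNA (siScrambled), both by reverse transfection with RNAiMAX and lysed 24 hours later. In the deletion arm, 3 libraries of cells given Cas9 complexes with guides on either side of the CALCRL enhancer were compared with 3 given Cas9 complexes with a guide against HPRT, and cells were collected 2 days after electroporation. Both deletion groups therefore received active Cas9, and no cloning step is given in the labels, so each library holds a population of cells. The labels do not say whether replicates of the siRNA arm were separate cultures, so p-values may measure only technical spread there.

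Cells enter mitosis when CDK1, bound to cyclin B, is activated by CDC25 phosphatases, and leave it when the anaphase-promoting complex with CDC20 marks cyclin B and securin for destruction. In between, condensins compact the chromosomes, kinetochores attach them to spindle microtubules, the spindle checkpoint holds anaphase until all are attached, and the central spindle and RhoA drive cytokinesis. Most of these genes are transcribed late in the cell cycle under the MuvB complex with B-MYB and FOXM1, which act at promoters holding a CHR element and CCAAT boxes. In bulk RNA, fewer cells in G2 or M and less mRNA per such cell cannot be told apart.

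CALCRL itself checked the labels. In the authors' deposited tables its log2 fold change was -1.56 (SE 0.17, adjusted p = 1.9e-17) after siRNA, which is 34.0% of control (95% interval 27.1 to 42.7). After enhancer deletion it was -1.47 (SE 0.43, adjusted p = 0.00962), which is 36.2% of control (95% interval 20.2 to 64.7). Of the endothelial markers looked for, 12 of 13 were listed in both tables, as were 3 of 7 smooth muscle and 2 of 8 leukocyte markers, and 0 of 6 fibroblast markers were. Of these, EGFL7 fell after siRNA (-0.46), 1 of 12 endothelial markers called (adjusted p under 0.05) or 8.33%, against 3.46% of all genes. After the deletion CDH5 (-1.44) and KDR (-1.05) fell, 2 of 12 called or 16.7%, against 15.8% of all genes. The 12 lay 4 above and 8 below 0 after siRNA. After the deletion they lay 6 above and 6 below, with a median of 0.02. LAPTM5 rose after the deletion (0.85), and 1 of the 2 leukocyte markers, both above 0, was called. The part of these markers in the results below was not tested. Depth per library is unknown, because the tables give only 1 mean normalised count, 1 fold change and 1 standard error per gene. For the 49 genes these means ran from 57.8 to 2009 in the siRNA arm and from 93.5 to 4091 in the deletion arm. Their standard errors ran from 0.08 to 0.30 and from 0.17 to 0.50 on the log2 scale, so the siRNA arm was the more precise.

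None of the 49 genes passed the threshold after CALCRL siRNA. At an adjusted p under 0.05 (the authors' DESeq2 Wald test, adjusted over their table) 0 of 49 were called, against 3.46% of all 11261 genes. At an unadjusted p under 0.05 there were 8, of which 7 were below control and 1, SPC25, above, and 12.0% of all genes passed that test. The authors' deposited table gave 33 of the 49 genes a fold change below 0 and 16 one above, with a median of -0.07 on the log2 scale, where the median over all genes was 0.00 and 49.4% of them were below 0. The fold changes ran from -0.38 in ZWINT to 0.40 in SPC25. The 95% intervals of all 49 genes lay between 50% and 200% of control, and those of 41 lay between 67% and 150%.

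The enhancer deletion changed 8 of the 49 genes, 4 in each direction. FOXM1, CDC25B, AURKB and TOP2A rose, and CENPA, KIF20A, ZWINT and NCAPD2 fell. That is 16.3% of the 49, and the authors' deposited table called 15.8% of all 11830 genes, 7.40% higher and 8.44% lower, so the share called was near the background. At an unadjusted p under 0.05 there were 16, 11 above and 5 below control, against 29.7% of all genes. Fold changes were above 0 in 29 genes and below 0 in 20, with a median of 0.22 on the log2 scale against 0.00 over all genes. Of the 41 genes that were not called, 25 lay above 0 and 16 below. With a Student t reference for 4 degrees of freedom, or with the statistics divided by their robust SD of 1.88, 0 of the 49 and 0 of all genes were called (8 and 4 of the 49 at an unadjusted p under 0.05). The intervals were wider here, and those of 30 of the 49 genes lay between 50% and 200% of control.

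**Figure D1:**
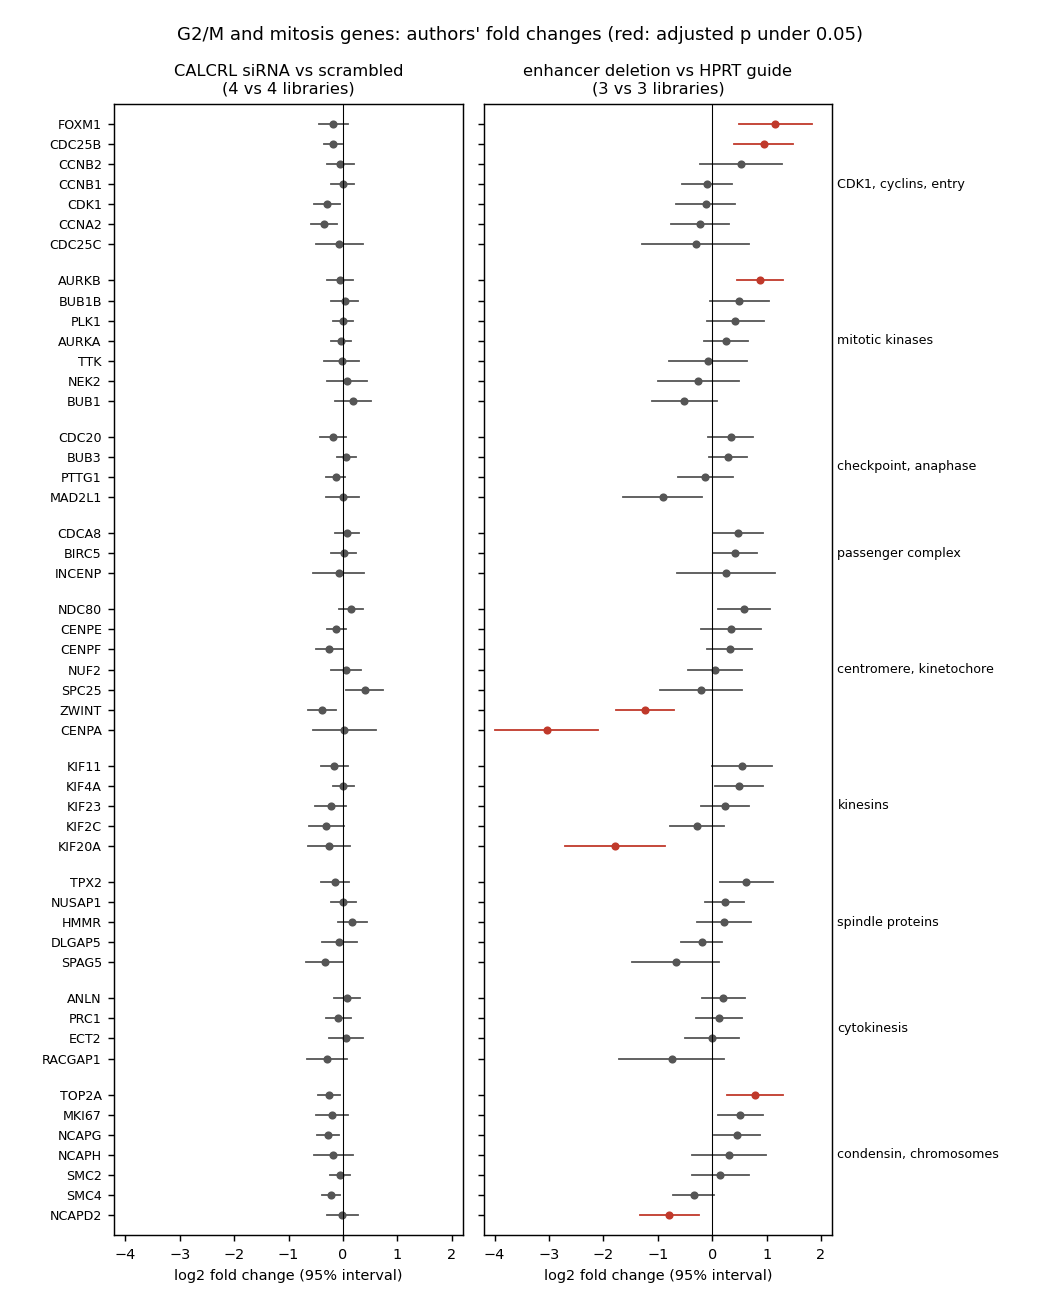
Log2 fold change of each of the 49 genes in the siRNA arm and the deletion arm, grouped by role, with bars of 95% intervals from the deposited standard errors. Red markers passed the adjusted p threshold: none in the siRNA arm, and 4 above and 4 below 0 in the deletion arm, where CENPA lies lowest at -3.04.

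The promoters show what most of these genes share outside their expression values. RefSeq's promoter table (build GRCh38.p14, 250 bases before to 50 after a start) held 42 of the 49 genes. The letters searched on both strands were TTTGAA and TTTAAA, which are forms of the CHR element, CCAAT, and GGCGGGAA and TTTCCCGC as E2F letters, of which the last 2 can overlap. A CHR form stood in a promoter of 38 of 42 genes (90.5%), against 21.6% of the 8646 genes of either deposited table with a promoter and 27.9% of all 27305 genes in the promoter table. CCAAT stood in 32 of 42 (76.2%), against 43.7% of genes in the deposited tables. Both stood in the same window in 27 of 42 (64.3%), against 9.21%. E2F letters stood in 3 of 42 genes (7.14%), against 8.19%. A gene with 2 windows counts here once, if any window holds the letters.

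5 promoters are shown because these genes took different directions after the deletion. CENPA and KIF20A fell, TOP2A and AURKB rose, and CCNB1 was at 93.6% of control without passing the test. Each is written 5' to 3' on the gene's strand, and capitals mark every match to the letters above, with ATTGG being CCAAT, and TTCAAA being TTTGAA, read on the other strand.
CENPA, chr2:26785806-26786105, plus strand: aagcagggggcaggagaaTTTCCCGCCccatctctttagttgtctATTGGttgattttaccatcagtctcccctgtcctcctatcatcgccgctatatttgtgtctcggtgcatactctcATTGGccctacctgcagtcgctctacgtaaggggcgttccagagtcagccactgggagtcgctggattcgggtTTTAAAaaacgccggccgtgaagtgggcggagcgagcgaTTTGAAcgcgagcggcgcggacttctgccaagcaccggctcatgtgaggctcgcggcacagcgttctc
KIF20A, chr5:138178862-138179161, plus strand: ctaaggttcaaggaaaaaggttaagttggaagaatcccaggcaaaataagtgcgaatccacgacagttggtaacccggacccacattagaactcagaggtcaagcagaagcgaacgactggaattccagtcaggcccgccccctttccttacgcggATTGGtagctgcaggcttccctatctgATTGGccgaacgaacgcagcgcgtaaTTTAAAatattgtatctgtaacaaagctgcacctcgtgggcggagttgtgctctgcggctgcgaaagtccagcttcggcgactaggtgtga
TOP2A, chr17:40417847-40418146, minus strand: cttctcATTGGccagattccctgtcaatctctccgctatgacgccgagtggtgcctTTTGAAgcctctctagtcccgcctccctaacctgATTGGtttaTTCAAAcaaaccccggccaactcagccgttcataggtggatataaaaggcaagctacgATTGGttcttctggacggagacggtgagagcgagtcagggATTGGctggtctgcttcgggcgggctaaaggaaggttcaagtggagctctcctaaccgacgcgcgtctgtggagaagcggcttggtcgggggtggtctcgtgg
AURKB, chr17:8210176-8210475, minus strand: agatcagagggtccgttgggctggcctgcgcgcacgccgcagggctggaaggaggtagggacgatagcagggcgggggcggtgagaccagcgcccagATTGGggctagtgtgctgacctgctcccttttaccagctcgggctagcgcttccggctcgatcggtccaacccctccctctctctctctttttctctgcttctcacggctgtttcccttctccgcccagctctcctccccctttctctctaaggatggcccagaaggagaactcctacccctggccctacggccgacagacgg
CCNB1, chr5:69166900-69167199, plus strand: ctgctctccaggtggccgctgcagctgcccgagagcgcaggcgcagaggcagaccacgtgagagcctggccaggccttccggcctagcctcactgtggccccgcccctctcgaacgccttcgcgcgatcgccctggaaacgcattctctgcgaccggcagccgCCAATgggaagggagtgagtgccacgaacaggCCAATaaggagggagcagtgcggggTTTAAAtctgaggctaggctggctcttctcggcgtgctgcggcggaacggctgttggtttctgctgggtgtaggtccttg

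In the promoter of CENPA, TTTGAA begins 18 bases and TTTAAA 57 bases before the start, with CCAAT boxes at 130 and 205 bases and overlapping E2F letters at 231 and 232 bases. KIF20A and CCNB1 each have a TTTAAA, at 41 and 30 bases, with a pair of CCAAT boxes behind it. The boxes lie at 67 and 94 bases in KIF20A, on the other strand, and at 55 and 87 in CCNB1, on the gene's strand. TOP2A holds 4 CCAAT boxes, at 53, 93, 160 and 244 bases, and TTTGAA letters at 151 and 194 bases. For AURKB the window shown is 1 of 2, and it holds a CCAAT box at 153 bases and no CHR letters. The 4 genes that fell all held CHR letters and CCAAT, and of the 3 that rose and have a promoter in the table, 2 held CHR letters and all 3 CCAAT. Genes with both elements in the same window had a median log2 fold change of 0.22 in the deletion arm (27 genes, 1 called higher and 4 lower). The other 15 had 0.15 (2 called higher and 0 lower). Among these 15 is CDC25B, which holds CHR letters and CCAAT in different windows.

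Among the genes of mitotic entry, FOXM1 and CDC25B rose after the deletion. FOXM1 encodes the transcription factor that drives late cell cycle genes. The mean normalised count implied by the authors' deposited table was 278 in control and 621 in deletion libraries, a log2 fold change of 1.16 (SE 0.34, adjusted p = 0.0103) or 223% of control (95% interval 140 to 356). For CDC25B, a phosphatase that activates CDK1, the implied means were 458 and 879, a log2 fold change of 0.94 (SE 0.28, adjusted p = 0.00993) or 192% of control. Both calls were lost with the GC trend described below removed (adjusted p = 0.0555 for FOXM1 and 0.0775 for CDC25B). The kinase and the cyclins of this group were not called after the deletion. Any effect of FOXM1 or CDC25B on the mRNA of that kinase and those cyclins was not tested. CDK1, the kinase of mitotic entry, was at 91.8% of control (95% interval 62.7 to 134). CCNB1, cyclin B1, was at 93.6% (67.8 to 129) and CCNA2, cyclin A2, at 85.3% (58.9 to 124) in the same deposited table. CCNB2, the other B-type cyclin, had a log2 fold change of 0.53 (adjusted p = 0.365), and CDC25C, the second CDC25 phosphatase listed, one of -0.30 (adjusted p = 0.728).

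After siRNA all 7 entry genes, and 33 of all 49, had log2 fold changes below 0 in the authors' deposited table. The 7 ran from -0.35 to -0.01, and 0 of 7 were called, against 3.46% of all genes. CCNA2 was at 78.4% of control (95% interval 66.2 to 92.9, adjusted p = 0.107), and CDK1 at 81.2% (68.8 to 96.0, adjusted p = 0.210). CDC25B was at 88.0% (78.6 to 98.4, adjusted p = 0.285). These 3 had an unadjusted p under 0.05, as did 8 of all 49 and 12.0% of all genes. CCNB1, at 99.5% of control (86.2 to 115), and FOXM1, at 88.6% (73.8 to 106), did not.

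Of the 7 mitotic kinases 0 were called after siRNA and 1, AURKB, after the deletion (14.3%, against 15.8% of all genes). Aurora B, its product, is the enzyme of the chromosomal passenger complex, which corrects faulty kinetochore attachments. Its implied means were 378 and 691, a log2 fold change of 0.87 in the authors' deposited table (SE 0.22, adjusted p = 0.00200) or 183% of control (136 to 245). The other members of that complex were also above 0 without passing: CDCA8 (borealin) at 0.47, BIRC5 (survivin) at 0.42 and INCENP, its scaffold, at 0.25. Their adjusted p-values were 0.156, 0.145 and 0.755. With the trend on GC content described below removed, AURKB was at 0.46 (adjusted p = 0.143, no longer called), CDCA8 at 0.53, BIRC5 at 0.12 and INCENP at -0.01. In the siRNA arm AURKB was at 96.2% of control (81.9 to 113), and the complex's other 3 genes lay between -0.08 and 0.08 on the log2 scale.

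The remaining kinases passed neither test. PLK1, polo-like kinase 1, was at 100% of control after siRNA (88.2 to 114) and at 134% after deletion (92.9 to 193, adjusted p = 0.290). AURKA, Aurora A of the spindle poles, had log2 fold changes of -0.04 and 0.25 in the authors' deposited tables. BUB1, a checkpoint kinase that marks inner centromeres, lay in opposite directions, at 0.19 after siRNA (SE 0.17) and -0.52 after deletion (SE 0.31, adjusted p = 0.249). BUB1B, which encodes the checkpoint protein BUBR1, had 0.03 and 0.50. TTK, the MPS1 kinase that starts checkpoint signalling, had -0.02 and -0.09, and NEK2, a centrosome kinase, 0.07 and -0.25.

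The centromere and kinetochore genes held the largest fall among the 49. CENPA encodes the histone H3 variant that marks centromeres. Its implied means were 172 in control and 20.9 in deletion libraries, a log2 fold change of -3.04 in the authors' deposited table (SE 0.49, adjusted p = 2.1e-07) or 12.1% of control (6.28 to 23.5). ZWINT, an outer kinetochore protein that helps recruit the RZZ complex, had implied means of 359 and 152, a log2 fold change of -1.23 (SE 0.28, adjusted p = 0.000472) or 42.5% of control (29.2 to 61.7). The NDC80 complex, which binds microtubules, showed nothing of that size. NDC80 was at 0.58 (SE 0.24, adjusted p = 0.0777), NUF2 at 0.06 and SPC25 at -0.20 in the same deposited table. With the GC trend described below removed, NDC80 was at 0.90 (adjusted p = 0.00532) and called. NUF2 at 0.30 and SPC25 at -0.06 were not. The motor CENPE and the large kinetochore protein CENPF were at 0.34 and 0.32, neither called.

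After siRNA, CENPA was at 102% of control with the widest interval of this group (68.1 to 152). ZWINT was at 76.8% (64.1 to 91.9), with an adjusted p of 0.0903, the lowest of the 49 genes in the authors' deposited table. SPC25 was the highest, at 132% of control (104 to 167, adjusted p = 0.258). CENPF was at 84.1% (70.7 to 100), CENPE at 92.0%, NDC80 at 111% and NUF2 at 104%.

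None of the 4 checkpoint and anaphase genes was called in either arm, where 3.46% (siRNA) and 15.8% (deletion) of all genes were. MAD2L1, the MAD2 checkpoint protein, had the lowest deletion value, 53.1% of control (32.0 to 88.1, adjusted p = 0.0732), beside 99.5% after siRNA. Its partner BUB3 was at 122% (96.4 to 155), and CDC20, the activator that the checkpoint restrains, at 126% (94.8 to 169). With the GC trend described below removed, BUB3 was at 0.52 on the log2 scale (adjusted p = 0.0295) and called, unlike MAD2L1, CDC20 and PTTG1. PTTG1, which encodes securin, was at 91.3% after deletion and 91.0% after siRNA in the authors' deposited tables.

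KIF20A was the 1 of 5 kinesin genes called after the deletion (20.0%, against 15.8% of all genes). It encodes the motor that carries the passenger complex to the central spindle. Its implied means were 403 and 116, a log2 fold change of -1.79 in the authors' deposited deletion table (SE 0.47, adjusted p = 0.00360) or 28.8% of control (15.3 to 54.5), beside 83.5% after siRNA (63.7 to 110). Its relatives did not share that size: KIF11, the motor that separates spindle poles, was at 146% (99.7 to 215, adjusted p = 0.172) and KIF4A, a chromokinesin, at 140% (104 to 190, adjusted p = 0.114). KIF23, the motor of centralspindlin, was at 118%, and KIF2C, which depolymerizes microtubules at centromeres, at 82.6%. With the GC trend described below removed, KIF11 was at 0.81 on the log2 scale (adjusted p = 0.0388) and called. KIF20A stayed called, and KIF4A, KIF23 and KIF2C were not called. In the siRNA arm KIF2C was at 80.6% (64.5 to 101), KIF23 at 85.7%, KIF11 at 89.6% and KIF4A at 101%.

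The spindle and cytokinesis genes passed no test within an arm, where 3.46% (siRNA) and 15.8% (deletion) of all genes did. TPX2, which nucleates spindle microtubules and activates Aurora A, came nearest, at 155% of control after deletion (110 to 217, adjusted p = 0.0661) and 90.6% after siRNA. SPAG5, astrin, was below control in both authors' deposited tables, at 62.8% (36.2 to 109) and 79.2% (62.3 to 101). HMMR, a spindle pole protein, was above it in both, at 116% (82.1 to 165) and 113% (93.4 to 136). NUSAP1 was at 117% and 100%, and DLGAP5, a protein of kinetochore fibres, at 87.4% and 95.3%. Of the cytokinesis genes, RACGAP1, the partner of KIF23 in centralspindlin, was lowest at 59.5% (30.5 to 116) after deletion and 81.5% after siRNA. ECT2, the exchange factor for RhoA, was at 99.2% and 104%, PRC1, the bundler of the central spindle, at 109% and 94.2%, and ANLN, anillin, at 115% and 105%.

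Of the 7 chromosome structure genes, 1 was called higher and 1 lower after the deletion (28.6%, against 15.8% of all genes). TOP2A, the topoisomerase that untangles sister chromatids, rose: its implied means were 3006 and 5175, a log2 fold change of 0.78 in the authors' deposited table (SE 0.26, adjusted p = 0.0242) or 172% of control (121 to 245). NCAPD2, a subunit of condensin I, fell from 479 to 277, a log2 fold change of -0.79 (SE 0.28, adjusted p = 0.0337) or 57.8% of control (39.7 to 84.1). The subunits it is assembled with were not called: NCAPG was at 136% (102 to 183), NCAPH at 123%, SMC2 at 111% and SMC4 at 78.8% (60.3 to 103). MKI67, which encodes the proliferation marker Ki-67 that coats mitotic chromosomes, was at 143% (107 to 191, adjusted p = 0.0774). After siRNA all 7 of these genes were below 0, beside 33 of all 49, and 0 of 7 were called, against 3.46% of all genes. An unadjusted p under 0.05 was found in 3 of the 7, against 12.0% of all genes. Those were NCAPG at 82.5% of control (71.4 to 95.4, adjusted p = 0.157), SMC4 at 85.8% (76.8 to 96.0, adjusted p = 0.134) and TOP2A at 83.6% (72.7 to 96.2, adjusted p = 0.191). MKI67 was at 86.8% (70.9 to 106), NCAPH at 88.5%, SMC2 at 96.8% and NCAPD2 at 99.1% in that deposited table.

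Gene by gene, the arms were then set against each other, with the siRNA minus the deletion log2 fold change divided by their combined standard error. The libraries are separate, so the arms share no control. It was called in 10 of 49 genes (20.4%), against 13.7% of the 10891 genes in both tables. In 7 the siRNA value was the lower: FOXM1 at -1.34, CDC25B at -1.13, TOP2A at -1.04, AURKB at -0.93, TPX2 at -0.77, NCAPG at -0.73 and MKI67 at -0.72. In 3 it was the higher: CENPA at 3.07, KIF20A at 1.53 and ZWINT at 0.85. NCAPG, TPX2 and MKI67 were called here while neither arm alone called them. For NCAPD2 the difference was 0.78 (adjusted p = 0.0732). With the t reference or the robust SD this test called 0 genes (8 and 5 of the 49 at an unadjusted p under 0.05). The arms also differ in delivery, time, control and number of libraries, which cannot be told apart from the target.

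**Figure D2:**
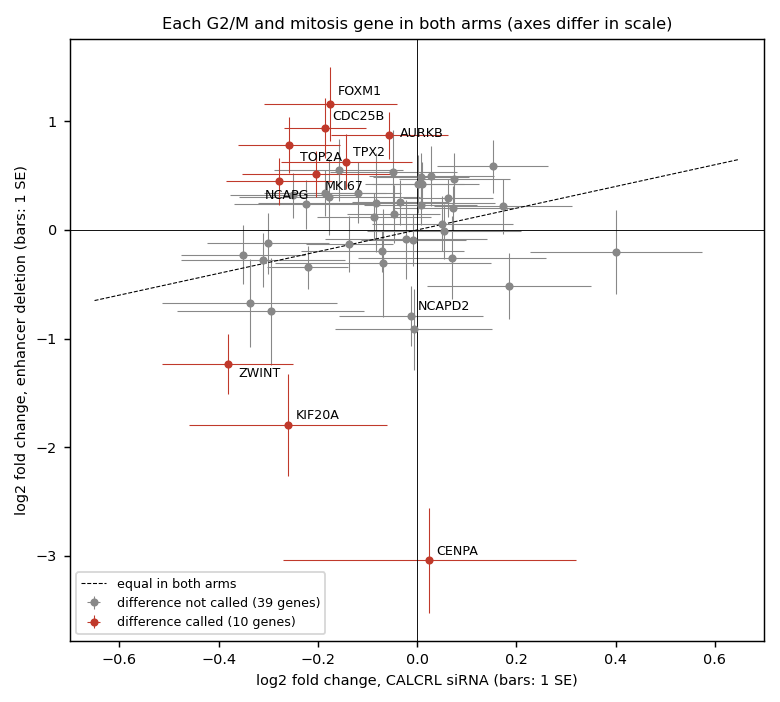
Log2 fold change of each of the 49 genes in the siRNA arm (x axis) and the deletion arm (y axis, wider scale), with bars of 1 SE from the deposited tables and a dashed line where the arms are equal. The 10 genes whose difference was called are red, and CENPA, KIF20A and ZWINT are the 3 that lie below the line.

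Fold changes in the deletion arm moved with base composition. Across 11630 genes the Spearman correlation between the deletion fold change and the GC content of the last 500 transcript bases (GENCODE 29) was 0.30, a description across genes of the same libraries, and in the siRNA arm it was 0.07. In 10 equal groups by GC content the median deletion log2 fold change ran from -0.26 in the lowest to 0.59 in the highest. The 49 genes have a median GC content of 39.0%, against 42.0% over all genes. AURKB, CDC25B and FOXM1 have GC contents of 56.6%, 52.2% and 52.0%. With the trend removed, their log2 fold changes were 0.46, 0.69 and 0.92 with adjusted p-values of 0.143, 0.0775 and 0.0555, so none of these 3 was called. TOP2A, CENPA, KIF20A, ZWINT and NCAPD2 were called with and without the trend. BUB3 at 0.52 (adjusted p = 0.0295), KIF11 at 0.81 (0.0388) and NDC80 at 0.90 (0.00532) were called only with it removed. The number called thus stayed at 8 of 49, beside 12.4% of all genes, but only 5 were the same genes. The median of the 49 was then 0.23, with 34 above 0 and 15 below. The cause of the trend was not tested.

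**Figure D3:**
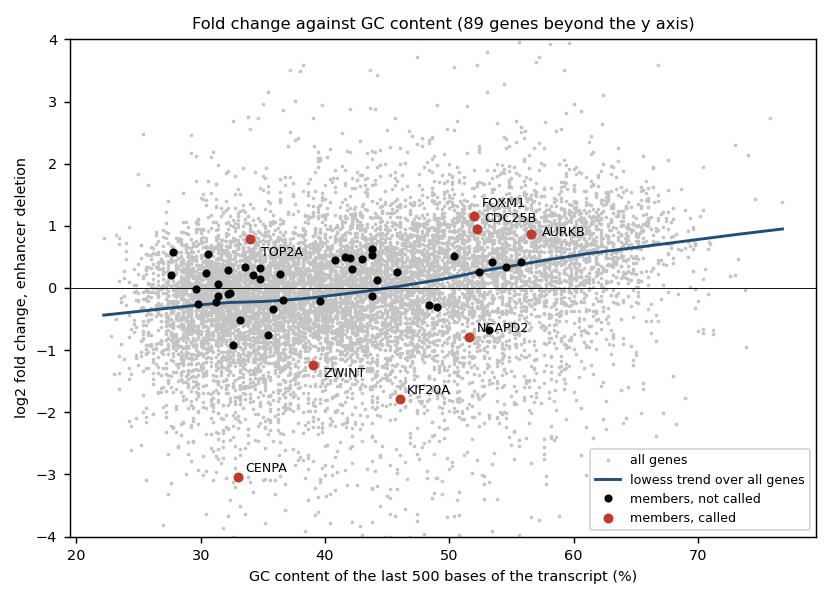
Deletion log2 fold change against GC content of the last 500 transcript bases (percent) for all genes and the 49 genes, with the fitted trend. AURKB, CDC25B and FOXM1 lie above 50% GC, where the trend itself is above 0, and 89 genes beyond 4 on the y axis are not drawn.

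CENPA and KIF20A, the lowest of the 49 after the deletion, had large standard errors in the other arm. Each gene's siRNA standard error was divided by that of genes of the same mean count. The ratio was 1.62 for CENPA, the highest of the 49, and 1.36 for KIF20A, while it was 1.10 for NCAPD2 and 0.98 for ZWINT. MKI67 at 1.44 and INCENP at 1.40 had higher ratios than KIF20A, and their deletion log2 fold changes were 0.52 and 0.25. Over all genes with a ratio above 2, none of them among the 49, the median deletion log2 fold change was -2.01, and 207 of 215 were below 0. From 1.5 to 2, where CENPA is the 1 member, it was -0.96 over 282 genes. In the band below, which holds KIF20A, MKI67, INCENP and 3 other members, it was -0.22 over 827 genes, and over the 10679 genes with a ratio of at most 2 it was 0.02. The part of this in the fall of CENPA and KIF20A was not tested.

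**Figure D4:**
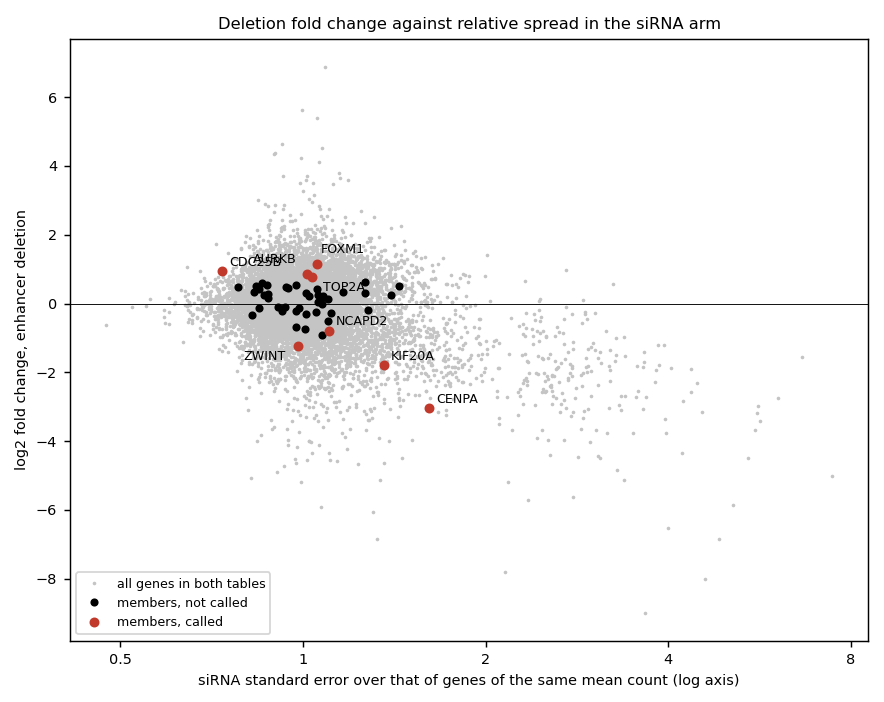
Deletion log2 fold change against the ratio of each gene's siRNA standard error to that of genes of the same mean count (log axis), for all genes in both tables and the 49 genes. CENPA, at 1.62 and -3.04, lies nearest to the genes with ratios above 2, which are mostly below 0.

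Neighbouring transcripts could share reads with some of these genes, since strand use in the counting is not given in the sources used here. In 11 of the 49 genes an exon of another gene overlaps the last 500 genomic bases of the annotated gene, which need not be the 3' end that was read. For KIF20A this is CDC23, an anaphase-promoting complex subunit on the opposite strand, whose log2 fold change in the authors' deposited deletion table was -0.96 (SE 0.38, adjusted p = 0.0677). For FOXM1 it is ITFG2, at 0.19 (SE 0.51). The values of KIF20A and FOXM1 are uncertain to that extent. A named pseudogene exists for 11 of the 49, NCAPG and SMC4 among them as among the overlapping genes, and 0 of these pseudogenes are listed in either table.

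A 7-base word, GTAACAA, in 3' UTRs went with lower values in the siRNA arm in an earlier look at these data, so its presence here supports nothing further. It occurs in the annotated 3' UTR of 4 of 49 genes (8.16%), against 10.7% of 10650 genes. These are CDK1, SMC4, KIF2C and NCAPD2, with siRNA log2 fold changes of -0.30, -0.22, -0.31 and -0.01 in the authors' deposited table. Their median was -0.26, against -0.06 in the other 45, and over all genes the medians were -0.12 with the word and 0.01 without. The sites are shown with the word in capitals and 10 bases on either side, from GENCODE 29 transcripts.
CDK1: aggtctcactGTAACAActatttgtta
SMC4: cctgccaagaGTAACAAtatcattaat
KIF2C: tacattgtatGTAACAAtaaagagaaa
NCAPD2: cttaaagtctGTAACAAcccaggcctc

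Other cell cycle lists were read beside the 49 genes, with no test of a list and against the 3.46% of all genes called after siRNA and the 15.8% called after the deletion. The Student t reference called 0 genes of these lists in either arm, and the robust SD 0 in the deletion arm. Among 74 further G2/M genes, 4 (5.41%) fell after siRNA and 0 rose, with a median of -0.13 and 57 below 0 in the authors' deposited table. They were H2AFZ, a histone variant, at -0.92 (adjusted p = 1.79e-14), CEP55, a protein of abscission, at -0.66, CKAP2L at -0.51 and CDC25A, an activator of cyclin-dependent kinases named after its value was seen, at -0.53. H2AFZ and CKAP2L carry GTAACAA in a 3' UTR, as do 10.7% of all genes. That word was found from these same siRNA values, so its presence supports nothing about their fall. After the deletion 10 of 74 (13.5%, below the share of all genes) were called, 5 in each direction, with a median of -0.03. KIF22, a chromokinesin, rose to 261% of control and TUBB4B, a tubulin, to 231%, with STMN1 at 171%, DBF4 at 183% and MAD2L2 at 198%. ESPL1, the protease separase that cuts cohesin, fell to 23.2% and BORA, which helps activate PLK1, to 16.0%. KIF18B at 19.8%, NCAPG2 of condensin II at 49.0% and CDCA3 at 30.8% fell as well. Of these 10, the naming rule picks KIF22, TUBB4B and STMN1, and the others were named after their values were seen. With the GC trend removed MAD2L2, NCAPG2 and CDCA3 lost their calls (adjusted p = 0.361, 0.0859 and 0.0635). Others were gained, and 9 of 74 were then called, 6 higher and 3 lower, against 12.4% of all genes.

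For regulators of the mitotic genes and partners of their products, the lists are small and their counts are given gene by gene. Of 12 genes of the DREAM and MuvB complexes, 0 were called after siRNA (median -0.13). After the deletion MYBL2, which encodes B-MYB, rose with a log2 fold change of 0.85 (adjusted p = 0.0184, and 0.421 with the GC trend removed), and E2F4, a repressor subunit of DREAM, fell with -1.35 (adjusted p = 0.0146). E2F5 was also called lower (adjusted p = 0.00664), but its implied mean after the deletion, 1.07, lies below a floor of 3 counts, so no fold is given. These are 3 of 12 genes. With the GC trend removed 3 of 12 were called as well, 1 higher and 2 lower, against 12.4% of all genes. Of 14 anaphase-promoting complex genes none was called after siRNA (median -0.03), and ANAPC15 at 0.96 and ANAPC7 at 0.80 rose after the deletion (2 of 14, 14.3%, median 0.20). Both calls were lost with the GC trend removed (adjusted p = 0.0680 and 0.0610), and 1 of 14 was then called, in the lower direction. Of 13 cohesin genes none was called after siRNA (median -0.02). SMC1A, a core ring subunit, rose after the deletion with 1.03 (adjusted p = 0.00373, 1 of 13 or 7.69%, median 0.19). With the GC trend removed 3 of 13 were called, all higher.

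Genes of the preceding phases were called in both arms, where 3.46% (siRNA) and 15.8% (deletion) of all genes were called. Among CDK inhibitors and RB genes, CCND3, cyclin D3, rose after siRNA with 0.38 (adjusted p = 0.0309, 1 of 16 called, 6.25%, and 0 with the robust SD), and CDKN2D, an inhibitor of CDK4 and CDK6, fell after the deletion with -1.45 (adjusted p = 0.0229, 1 of 14 called, 7.14%). Of the G1/S and replication genes, MCM7 at -0.36 and CDC6 at -0.50, both needed to license origins, fell after siRNA, 2 of 39 called (5.13%) with a median of -0.19. After the deletion 8 of 40 (20.0%) were called, 6 higher and 2 lower, with a median of 0.06: CDT1 at 1.74, MCM7 at 0.94 and MCM3 at 1.12 had the lowest adjusted p-values in the authors' deposited table. The MCM7 call was lost with the GC trend removed (adjusted p = 0.119), while 8 of 39 were then called, 6 higher and 2 lower. MCM2, another subunit of the same helicase, and CDC45, named after their values were seen, fell with -2.65 and -1.55. Of tubulin and centrosome genes, 0 of 23 were called after siRNA (median -0.05) and 4 of 24 (16.7%) after the deletion (median 0.09). STIL, a centriole protein, fell with -2.15 and TUBA1A with -0.90. TUBB6 at 0.53 and HAUS6 at 0.74, the latter named after its value was seen, rose. TUBB6 lost its call with the GC trend removed (adjusted p = 0.614), while 4 of 24 were then called, 2 in each direction.

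**Figure D5:**
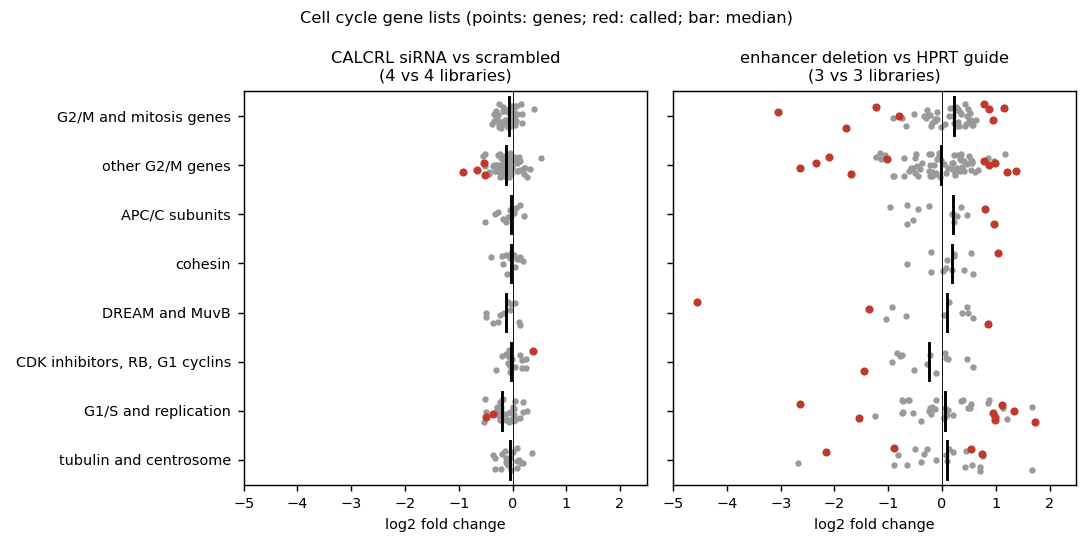
Log2 fold changes of the 49 genes and of 7 related gene lists in both arms, 1 point a gene, with the median of each list as a line and called genes in red. In the deletion arm called genes lie on both sides of 0 in the 49 genes, the further G2/M genes, the DREAM and MuvB genes, the G1/S genes and the tubulin and centrosome genes.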

How the data were processed

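RNA was measured by QuantSeq 3' mRNA sequencing in 14 teloHAEC libraries. The authors deposited 1 DESeq2 table per arm, per the file headers, with a mean normalised count, log2 fold change, standard error, Wald statistic, p-value and adjusted p-value for each gene, and no value per library. Its numbers use decimal commas, so each deposited column was read as a score and converted. The submitters' processing notes name the build hg19 and edgeR 3.24.3. The role of edgeR, the aligner and the counter are not given in the sources used here. Deposited statistics equalled fold change over standard error, and adjusted p-values the Benjamini-Hochberg adjustment of the p-values, on checking.

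The members and lists were chosen with earlier results of these data known. Genes count as called where the p-value, adjusted over the whole table, was under 0.05. Percent of control, 95% intervals and implied group means were computed from the deposited values. Intervals cover the fitted error only. The arms were compared by a normal test of the difference per gene, adjusted over 10891 genes. Alternatives were a Student t reference, statistics divided by their robust SD, centring, removal of a lowess trend (span 0.3) on GC content of the last 500 transcript bases, a mean count of at least 50 and an adjusted p under 0.1. Named with full values are members called in an arm or in the difference, the 3 highest and 3 lowest in each arm, CDK1, CCNB1, PLK1, AURKB, FOXM1, TOP2A, MKI67 and CALCRL, and up to 3 called genes of each other list by lowest adjusted p. The other members are given so that all 49 are accounted for. Promoters came from RefSeq (GRCh38.p14) and 3' UTRs from GENCODE 29. No coordinate was taken from the files. Python 3.11.15, pandas 2.3.3, scipy 1.17.1 and statsmodels 0.14.6 were used.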

Additional observations from a re-analysis of the deposited data

Results flagged for a closer look

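The effect of the CALCRL siRNA and that of the enhancer deletion differed in 10 of the 49 genes, by the test of the difference itself (siRNA minus deletion, log2 scale, Benjamini-Hochberg adjusted over all genes in both tables), as it did in 13.7% of all 10891 genes. With the Student t reference or the robust SD, 0 of the 49 and 0 of all genes were called. The difference was -1.34 in FOXM1, -1.13 in CDC25B, -1.04 in TOP2A, -0.93 in AURKB, -0.77 in TPX2, -0.73 in NCAPG and -0.72 in MKI67, each lower after siRNA. It was 3.07 in CENPA, 1.53 in KIF20A and 0.85 in ZWINT, each higher after siRNA. The weakest of these by adjusted p was TPX2, at 0.0481. With the GC trend removed in both arms, 7 of the 10 were called again, while AURKB, MKI67 and ZWINT were not and CENPF, KIF11 and NCAPD2 were gained, so that 10 of 49 were called against 11.3% of all genes.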

How the results depend on the processing

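No paired analysis was possible because the deposited tables hold no value per library, and leaving out single replicates and a replicate block were not run for the same reason. With a Student t reference (4 degrees of freedom) the deletion arm called 0 of the 49 genes (8 at an unadjusted p under 0.05) and 0 of all genes (1646 unadjusted). With statistics divided by their robust SD of 1.88 it called 0 (4 unadjusted) and 0 of all genes (534 unadjusted). The difference between the arms was called in 0 of the 49 under both settings, with 8 and 5 at an unadjusted p under 0.05 (1386 and 447 over all genes). At an adjusted p under 0.1 the siRNA arm called 1 gene, ZWINT, against 4.59% of all genes. The log2 fold change of CALCRL had an adjusted p of 0.102 after siRNA under the t reference (-1.56), and after deletion 0.357 under the t reference and 0.976 with the robust SD (-1.47), and 0.0753 with the GC trend removed (-1.07). Among the genes named by rule, small values changed sign with the GC trend removed: in the deletion arm CCNA2 to 0.0202, CCNB1 to 0.14 and CDK1 to 0.12, in the siRNA arm CCNB1 to 0.0102 and PLK1 to -0.0173, and the difference for CCNB1 to -0.13. Of the other members CDC20, INCENP, NEK2, TTK, DLGAP5 and ECT2 changed sign in the deletion arm (to between -0.01 and 0.27), and BIRC5 and MAD2L1 in the siRNA arm. Centring moved PLK1 after siRNA to -0.00085. The cause of these changes was not tested. Over the 19 named members, 270 values kept direction and call under an alternative, 42 lost a call, 4 gained one and 7 changed sign. Only centring and removal of the GC trend could change a direction, and 0 of the 49 had a call to lose after siRNA. The 270 is therefore in part fixed by the settings. Depth per library is unknown, and with 3 or 4 libraries a group the intervals above set what could be seen.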

Other observations

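SMC4, a core condensin subunit, overlaps in the last 500 genomic bases of its annotated gene with TRIM59 on the opposite strand. In the authors' deposited deletion table TRIM59 had a log2 fold change of -3.13 (SE 0.71, adjusted p = 0.000595), while SMC4 had -0.34 (adjusted p = 0.227). After siRNA the values were 0.10 for TRIM59 (SE 0.29) and -0.22 for SMC4. TRIM59 was named after its value was seen. CCNA2 and EXOSC9 overlap in the same way, and EXOSC9 was at 0.36 after the deletion (adjusted p = 0.273). NCAPG overlaps LCORL, at -0.38 (adjusted p = 0.673), and SPC25 overlaps NOSTRIN, at 0.08 (adjusted p = 0.952).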
